A study of Sus scrofa with 189 samples.

Results

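The 8 genes described here are ND1, ND2, ND3, ND4L, ND4, ND5, ND6 and CYTB, the rows of chromosome MT that carry those names. They are 8 of the 12651 genes listed for the longissimus dorsi, the long back muscle, of 189 pigs from a first-generation cross of Duroc boars with Luchuan sows. All animals were 210 ± 6 days old at slaughter, and muscle was taken 25 minutes after death. Polyadenylated RNA was sequenced in paired reads of 150 bases. Intramuscular fat content (IMF, unit not stated in the labels) is the only recorded trait. The titles of 21 libraries carry the mark re-analyzed, which the labels do not explain. They are 10 animals of high IMF (6.03 ± 0.636, SD, n = 10) and 11 of low IMF (1.69 ± 0.433, SD, n = 11). Another 143 animals with a recorded IMF carry no mark (3.34 ± 0.850, SD, n = 143), and 25 animals have no recorded IMF. All animals share the cross, the diet and the farm, and no group was treated. The labels give 158 sows in one field and 112 in another and do not say which animals share a parent, so that p-values, which treat animals as independent, measure the spread between animals only.

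Complex I of the respiratory chain (NADH:ubiquinone oxidoreductase) takes electrons from NADH and pumps protons across the inner mitochondrial membrane. The mitochondrial genome encodes its ND subunits, which sit in the membrane arm, while the nuclear genome encodes all others. Cytochrome b, encoded by CYTB, is the only subunit of complex III (ubiquinol:cytochrome c oxidoreductase) that mitochondrial DNA encodes. Both strands of mitochondrial DNA are transcribed into long precursors that are cut into separate RNAs largely at the tRNAs between the genes, so levels of single mRNAs depend on cutting, tailing and decay as well as on transcription. Mitochondrial DNA is inherited from the mother, which in this cross is the Luchuan sow.

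The genes lie on chromosome MT of Sscrofa11.1, each listed as a single transcript in the deposited table, and all are protein-coding. ND1 spans positions 3922 to 4876 on the plus strand and ND2 positions 5087 to 6128. ND3 lies at 10653 to 10998, between tRNA genes that separate it from COX3 and from ND4L. ND4L (11069 to 11365) and ND4 (11359 to 12736) share 7 bases and are known in mammals to be carried by a single mRNA. ND5 (12935 to 14755) shares 17 bases with ND6 (14739 to 15266), which is the only member on the minus strand. CYTB lies at 15342 to 16481. The labels do not state that the counting used strand, so reads of ND6 and of any RNA from the opposite strand cannot be told apart. The levels given for ND6, its ratio to ND5 and its correlations all carry this limit.

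Values are FPKM, fragments scaled to transcript length and to the mapped fragments of a library. FPKM is an inference, since the header names no unit. Depth per library is unknown, and the spread between animals is the only error available. The 8 genes together took between 0.244% and 1.79% (median 0.795%) of the fragments of a library, and none was at 0 in any library. Skeletal muscle genes were abundant in the tissue check: skeletal actin ACTA1 ranged from 4545 to 48861 FPKM and the slow myosin gene MYH7 from 106 to 1989 FPKM. Library 39, an unmarked one, correlated least with the others (median r = 0.889 across genes) and held the highest values of ND4, ND5 and CYTB.

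CYTB and ND4 were the most abundant members and ND1 the least abundant. CYTB averaged 1882 ± 534 FPKM (SD, n = 189), with 734 FPKM in the lowest, 1860 in the median and 3908 in the highest library. ND4, a proton-pumping subunit of the membrane arm, averaged 1695 ± 644 FPKM and ranged from 550 to 4574. The order of the means went on with ND4L (1226 ± 649 FPKM), ND3 (977 ± 513 FPKM), ND6 (670 ± 402 FPKM), ND2 (639 ± 341 FPKM), ND5 (620 ± 311 FPKM) and ND1 (525 ± 152 FPKM). CYTB exceeded ND4 in 147 of the 189 animals and ND4 exceeded ND4L in 149, whereas ND6 exceeded ND2 in 78, ND2 exceeded ND5 in 98 and ND5 exceeded ND1 in 108. ND6, ND2, ND5 and ND1 therefore had no fixed order from animal to animal.

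**Figure D1:**
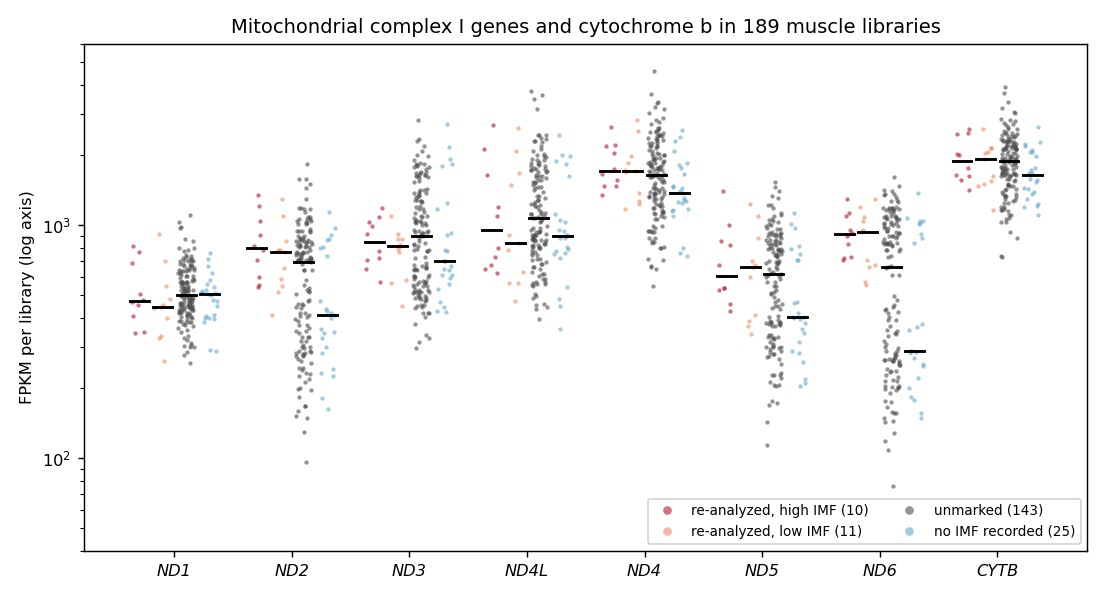
FPKM (log axis) of the 8 genes in each library, by group, with a black bar at each group's median. CYTB and ND4 sit highest, and ND6 of the unmarked libraries forms an upper and a lower band, while all 21 re-analyzed libraries lie at or above 555 FPKM.

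The spread between animals also differed among the members. ND1, a subunit at the junction of the membrane arm with the peripheral arm, had an SD of 0.40 on the log2(FPKM + 1) scale, close to the median of 0.37 over the 10717 genes tested (mean FPKM of 0.5 or more). CYTB had an SD of 0.42 and ND4 of 0.55. ND3 and ND4L, both small subunits, had SDs of 0.72 each, and the pumping subunits ND5 and ND2 of 0.79 and 0.87. ND6 varied most among the 8, with an SD of 1.06, and 98.9% of the genes tested had a lower one. Of the other mitochondrial mRNAs, COX3 (SD 0.28) varied less than any member and ATP6 (SD 1.28) more.

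ND6 did not vary around a single centre. Its lowest library had 76.1 FPKM, its median library 713 and its highest 1607. On the log2(FPKM + 1) scale, 22 libraries fell between 8 and 8.25 and 33 between 10 and 10.25, but only 2 between 9 and 9.25. With the line drawn at 9 (511 FPKM) after the values were seen, 84 libraries lay below and 105 above, 8 of them within 0.25 of the line. All 21 re-analyzed libraries lay above it, 10 of 10 at high IMF and 11 of 11 at low IMF. The unmarked libraries divided into 75 above and 68 below, and the animals without IMF into 9 above and 16 below. Of the 41 animals highest in IMF 26 lay above, as did 26 of the 41 lowest.

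Other measures of the libraries also differed in range between the sides of the line, and because the line was drawn on ND6 itself no test was made. Some other mitochondrial mRNAs had shifted ranges too. A gene that moves with ND6 shifts when libraries are divided on ND6. Whether those mRNAs form 2 ranges of their own was not tested. ND2 ran from 412 to 1826 FPKM above the line and 96.8 to 707 FPKM below it. COX2 ran from 2899 to 7459 FPKM above and 591 to 4207 FPKM below, and ATP6 from 1464 to 10714 FPKM and 235 to 1989 FPKM. COX3 ran from 3911 to 12365 FPKM above and 4027 to 10151 FPKM below. The number of genes at 1 FPKM or more ran from 8363 to 10614 above the line and from 7803 to 9520 below it. The 10 most abundant genes took 20.0% to 37.6% of summed FPKM above and 28.4% to 44.8% below. The summed level of the 6 macrophage markers ran from 5.02 to 67.3 FPKM above and 11.9 to 72.5 FPKM below, and that of the 8 fibroblast and matrix markers from 286 to 3487 FPKM above and 354 to 2145 FPKM below. All of these ranges overlap. A range is set by its lowest and highest library, so it does not show which side was higher in most libraries. The part of RNA quality or other cells in the 2 ranges of ND6 was not tested.

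**Figure D2:**
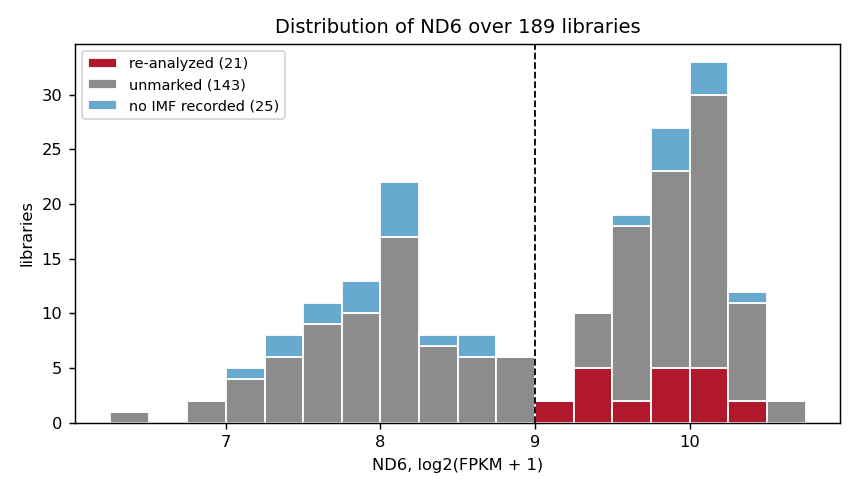
Number of libraries (vertical axis) by ND6 on the log2(FPKM + 1) scale in steps of 0.25, stacked by re-analyzed, unmarked and no-IMF libraries; the dashed line is at 9. Libraries gather near 8 and near 10, and the 21 re-analyzed ones are all to the right of the line.

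The first 9 digits of a title form a code whose meaning is not stated, and 48 codes are shared by 2 or more animals. Of these codes 34 held libraries on both sides of the ND6 line, 6 only below and 8 only above. Because the libraries form these 2 ranges, relations across libraries are given within each range. An r over all 189 is given only for a covariate fitted over both ranges.

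Below the ND6 line the 8 genes moved together. All 28 pairs were positively correlated over the 84 libraries, with Pearson's r between 0.54 and 0.97 (Spearman's rho 0.55 to 0.96). Each had a permutation p of 1e-05, the smallest that 100000 permutations can give, and Benjamini-Hochberg adjusted values over the 56 relations of both ranges were at most 1.14e-05. The 8 values of a library share its scale, a link that the permutations break. The p-values of both ranges therefore do not test the genes apart from that scale. The 2 tightest pairs were neighbours on the genome: ND4L with ND4 (r = 0.97), and ND5 with ND6 (r = 0.97), which lie on opposite strands and overlap by 17 bases. Reads of the 2 strands cannot be told apart at ND6, so its r with ND5 need not describe 2 separate RNAs. Next came ND2 with ND6 (r = 0.94) and with ND5 (r = 0.92), which lie apart, while the neighbours ND3 and ND4L had r = 0.65. ND3 had the loosest relations, down to r = 0.54 with ND2. Without the 2 libraries farthest from the median, r ranged from 0.51 to 0.97 over the pairs.

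Above the line r ran from 0.04 to 0.88 over the 28 pairs. ND4 and CYTB stayed close (r = 0.88, rho = 0.86, permutation p = 1e-05, adjusted 1.1e-05, n = 105), as did ND1 with ND4 (r = 0.88). ND3 showed no detectable relation with ND4 (r = 0.04, rho = -0.01, permutation p = 0.709, adjusted 0.709). With ND5 and CYTB, ND3 had r = 0.25 each, and with ND1 r = 0.22. Its rank correlations with ND5, CYTB and ND1 missed the threshold (rho = 0.18, 0.19 and 0.18, adjusted permutation p = 0.0643, 0.0571 and 0.0697). ND4L and ND4 had r = 0.46 (rho = 0.34, adjusted permutation p = 1.1e-05 for r), although they share an mRNA. ND5 with ND6 had r = 0.63. The line was drawn on ND6, whose SD on the log2 scale was 0.32 above it and 0.53 below. A narrower range of a gene lowers its r, so values of r for ND6, and for genes that move with it, cannot be set against each other between the ranges.

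**Figure D3:**
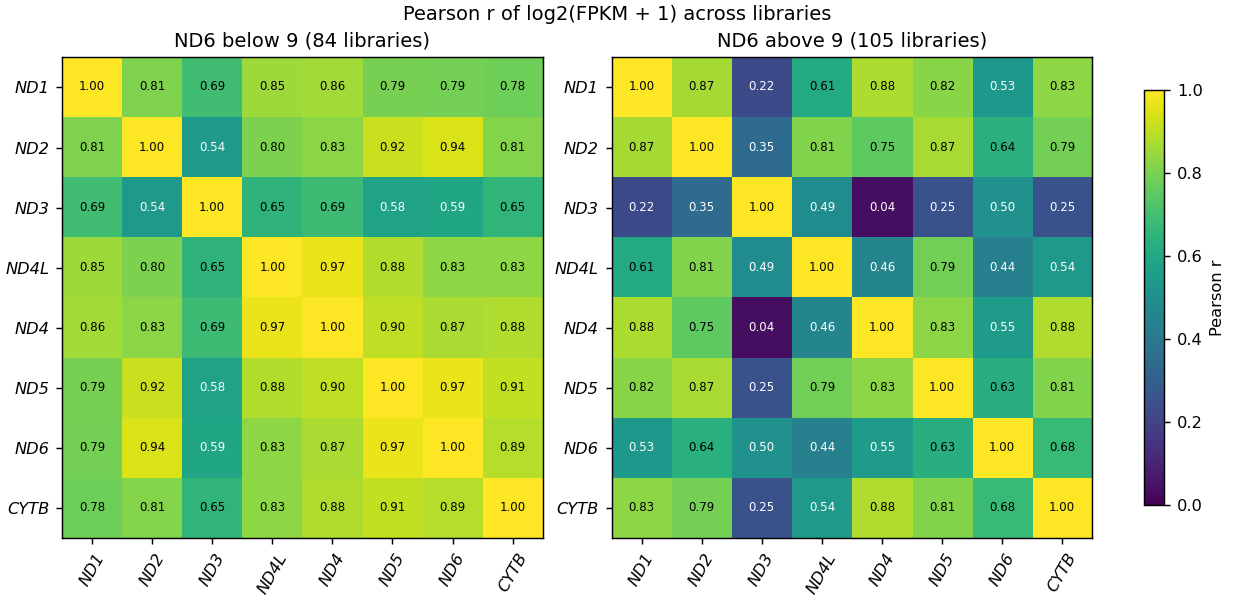
Pearson's r of log2(FPKM + 1) for every pair of the 8 genes, over 84 libraries with ND6 below 9 (left) and 105 above (right); the colour scale runs from 0 to 1. The left panel lies between 0.54 and 0.97, and in the right panel the ND3 row falls to 0.04 with ND4.

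The ratio of ND4L to ND4 was also examined. Both values are FPKM, per length, so a shared mRNA counted evenly along its length would give a ratio near 1. Below the ND6 line the ratio ranged from 0.494 to 0.798 (median 0.657), with 80 of 84 libraries between 0.6 and 0.8. Above the line it ranged from 0.256 to 1.17. There 42 of 105 libraries had a ratio under 0.6, 12 lay between 0.6 and 0.8, 11 between 0.8 and 1, and 40 at 1 or above. The libraries above the line thus held a low and a high set of ratios with few between. Of the re-analyzed libraries 13 of 21 were under 0.6 and 2 at 1 or above. Correlations of ND4L in this range run over both sets. ND4L is 297 bases long and ND4 1378, and how fragment length bears on the ratio was not tested.

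**Figure D4:**
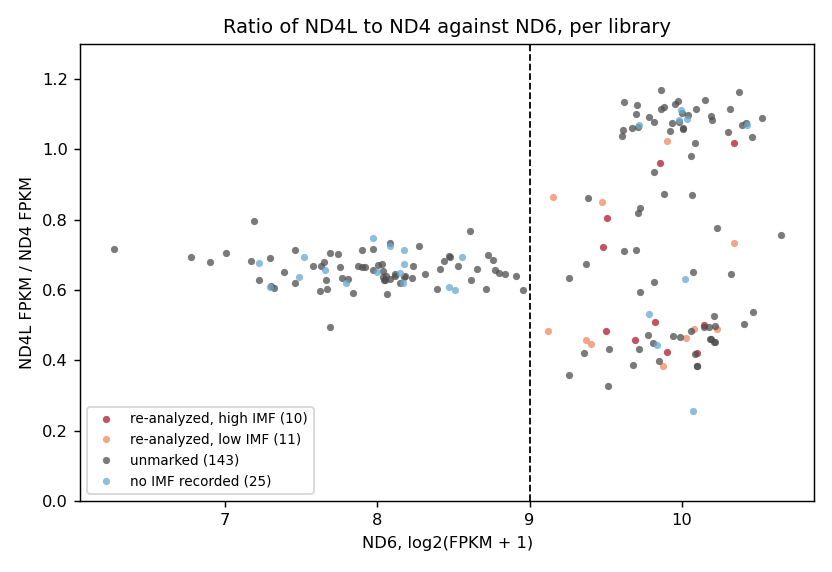
ND4L FPKM divided by ND4 FPKM (vertical axis) against ND6 on the log2(FPKM + 1) scale, a point per library, coloured by group; the dashed line is at 9. Points left of the line gather between 0.6 and 0.8, and those right of it spread from 0.256 to 1.17, with 42 under 0.6 and 40 at 1 or above.

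The ratio of ND6 to ND5, its overlap partner on the other strand, had a median of 1.68 in re-analyzed high-IMF libraries (0.852 to 2.04), 1.62 in re-analyzed low-IMF libraries (0.806 to 2.54) and 0.904 in unmarked libraries (0.638 to 1.62). The groups overlap, and the ratio itself was not tested. All 21 re-analyzed libraries lie above the ND6 line, while 68 of the 143 unmarked ones lie below it. The ratio ran from 0.638 to 0.917 below the line and from 0.762 to 2.66 above it. Because the line is drawn on the numerator, the medians of the groups cannot be read apart from that division.

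The 8 genes were also compared with the largest pattern of the nuclear genes, the first principal component of all tested genes outside chromosome MT, which held 28.6% of their variance. Below the ND6 line it correlated with ND2 (r = 0.84, rho = 0.84), ND6 (r = 0.78, rho = 0.77) and ND5 (r = 0.75, rho = 0.73), each with an adjusted permutation p of 1.82e-05 for r, and least with ND3 (r = 0.23, rho = 0.27, adjusted permutation p = 0.0395 for r, n = 84). Above the line it correlated with ND4L (r = 0.82, rho = 0.81, adjusted permutation p = 1.82e-05, n = 105) and not detectably with ND4 (r = 0.11, rho = 0.03, adjusted permutation p = 0.28). With ND6 it had r = 0.27 there. Leaving out the 2 libraries farthest from the median of the gene left r = 0.84 for ND2 below the line and 0.80 for ND4L above it. The adjustment is over 20 relations, which include those of ND6 with 2 measures of the library. ND6 correlated with the number of genes at 1 FPKM or more (r = 0.66 below the line and 0.21 above) and with the share of summed FPKM in the 10 most abundant genes (r = -0.41 below and -0.30 above). The adjusted permutation p for those 4 values of r was at most 0.0349, but the rank correlation with the number of genes missed the threshold above the line (rho = 0.13, adjusted permutation p = 0.204). Whether RNA quality or library making had a part in these relations was not tested.

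Few members tracked many nuclear genes. Below the ND6 line, 990 of 10688 nuclear genes had r above 0.7 with ND2, 537 with ND6 and 356 with ND5, but at most 4 with each of ND1, ND3, ND4L, ND4 and CYTB. Above the line 626 nuclear genes had r above 0.7 with ND4L and 48 below -0.7, against 14 with ND3 and at most 1 with each other member. These counts describe genes that share libraries, and no test was made of them.

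The nuclear genes most like the 8 were ranked by r with the mean z-scored log2 value of the members over all 189 libraries, and r is given here within the ranges. C1orf27 came first, with r = 0.76 below the ND6 line and 0.61 above it. It was followed by the splicing factor CWC22 (0.73 and 0.56), SEC62 of protein import into the endoplasmic reticulum (0.77 and 0.44), the golgin GOLGA4 (0.74 and 0.50), the helicase DHX36 (0.71 and 0.61) and RAB11FIP2 of endosome recycling (0.70 and 0.59). At the opposite end stood CKM, the muscle creatine kinase (-0.49 and -0.41), NFKBIL1 (-0.43 and -0.26) and COMMD9 (-0.33 and -0.04). They were chosen for this likeness, so the values carry no test.

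IMF was not detectably related to any of the 8 genes. In the 164 animals with IMF, 0 of 8 were called (limma, Benjamini-Hochberg adjusted p under 0.05, mark as covariate), where 0.084% of the 10717 genes tested were called, and 0 of 8 had an unadjusted p under 0.05, as against 4.92% of genes. The slopes per unit of IMF ran from 0.04 for ND4L (SE 0.05) to 0.07 for ND6 (SE 0.07) on the log2(FPKM + 1) scale, each with a limma adjusted p of 0.961. All 8 were positive, as were 7997 of the 10717 genes tested. The median slope was 0.042 for the members and 0.014 over all genes. With the title code (the first 9 digits) as a block, added after seeing the data in the 122 animals of 42 codes that share one, all 8 slopes were negative, from -0.0042 for ND1 (SE 0.05) to -0.13 for ND6 (SE 0.13), and none was called (limma adjusted p = 0.999). The slopes did not differ detectably between re-analyzed and unmarked libraries: the interaction of IMF and mark called 0 genes by limma, with 176 (1.64%) at an unadjusted p under 0.05 and none of the 8 among them.

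Within the re-analyzed libraries, high IMF was likewise not separated from low IMF in any member (0 of 8 called by limma, against 0.084% of genes). ND2 had 546 FPKM in the lowest, 797 in the median and 1342 in the highest of the 10 high-IMF libraries, against 412, 768 and 1301 FPKM in the 11 low-IMF libraries. ND6 ran from 713 over a median of 915 to 1299 FPKM at high IMF and from 555 over 940 to 1296 FPKM at low IMF. CYTB had 1419, 1887 and 2589 FPKM at high IMF and 1157, 1925 and 2600 FPKM at low IMF. The ranges of these 3 genes overlap almost completely. High minus low was 0.18 for ND2 (SE 0.19, limma adjusted p = 0.986), 0.11 for ND6 (SE 0.16) and 0.09 for CYTB (SE 0.14), and the 8 differences ran from 0.08 to 0.18, where the median over all genes was 0.07. Adipocyte markers were higher at high IMF in this comparison, 6 of 9 called, led by ADIPOQ (1.36, SE 0.25, limma adjusted p = 0.0311), the gene of the fat cell hormone adiponectin. Their summed level was 97.9 to 308 FPKM at high IMF and 42.1 to 206 FPKM at low IMF. Whether those cells had a part in the members' values was not tested. In bulk tissue, fewer cells of a type and less RNA per cell cannot be told apart.

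ND6 and ND2 were higher in the re-analyzed libraries than in the unmarked ones, with IMF as a linear covariate. IMF ran from 1.19 to 5.61 in the unmarked libraries. In the re-analyzed ones it ran from 4.83 to 6.84 (high) and from 0.77 to 2.33 (low), so the covariate partly reaches beyond the unmarked animals. ND6 had 555 FPKM in the lowest, 927 in the median and 1299 in the highest of the 21 re-analyzed libraries, against 76.1, 661 and 1607 FPKM in the 143 unmarked ones. The re-analyzed values lie inside the unmarked range and leave its lower part empty. ND6 differed by 0.74 (SE 0.24, limma adjusted p = 0.00894). ND2 had 412, 780 and 1342 FPKM in re-analyzed libraries and 96.8, 694 and 1826 FPKM in unmarked ones, a difference of 0.48 (SE 0.20, limma adjusted p = 0.0453). The call of ND2 was lost under quantile normalization (limma adjusted p = 0.075) and when FPKM were scaled to the genes outside chromosome MT (0.0707). With title code as a block, 12 codes held both kinds of library, 13 re-analyzed among 37 animals. ND6 then differed by 1.05 (SE 0.38, limma adjusted p = 0.0613) and ND2 by 0.79 (SE 0.32, limma adjusted p = 0.0851), so that 0 of 8 were called, where 3.55% of genes were called higher and 6.85% lower. The other 6 differences were positive in that fit, from 0.074 for ND3 to 0.61 for ND5.

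These 2 of 8 stand beside a background of 41.1% of the 10717 genes called, 18.3% higher and 22.7% lower. With both directions counted, the share of members called is not above that of all genes. Both members were higher, and their count was not tested against the 18.3% of genes called higher. The other 6 genes were not called. ND5 differed by 0.22 (SE 0.18) and ND4 by 0.12 (SE 0.13), CYTB by 0.0042 (SE 0.10), and ND1, ND4L and ND3 by -0.12, -0.14 and -0.16 (SE 0.10, 0.17 and 0.17). The member median was 0.06, against -0.01 over all genes. The other mitochondrial mRNAs also differed among themselves: ATP6 was higher by 0.79 (SE 0.29, limma adjusted p = 0.0211) and ATP8 by 0.58, while COX3 was lower (-0.28, SE 0.07, limma adjusted p = 0.000366).

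The first principal component of the nuclear genes was added as a further covariate, chosen after seeing the data. In that fit ND6 and ND2 were no longer called, and 5 other members were called lower in the re-analyzed libraries. Over all 189 libraries the component had r = 0.91 with ND6 and 0.93 with ND2, and 0.57 (ND1) to 0.89 (ND5) with the other members. The covariate thus stands in large part for ND6 and ND2, so the loss of their calls decides nothing about the mark. It also moves with the other members and differs between the sets of libraries. Their lower values in this fit therefore cannot decide whether they differ with the mark. ND4L differed by -0.55 (SE 0.10, limma adjusted p = 1.46e-06) and ND3 by -0.53 (SE 0.11, limma adjusted p = 2.79e-05). ND1 (-0.29), ND5 (-0.27) and CYTB (-0.20) were lower by less. In that fit 40.6% of all genes were called, 29.8% lower. ND6 kept a difference of 0.10 (SE 0.10) and ND2 had -0.07 (SE 0.08). Re-analyzed libraries averaged 0.651 ± 0.359 (SD, n = 21) on this component, and unmarked libraries -0.0329 ± 1.02 (SD, n = 143).

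**Figure D5:**
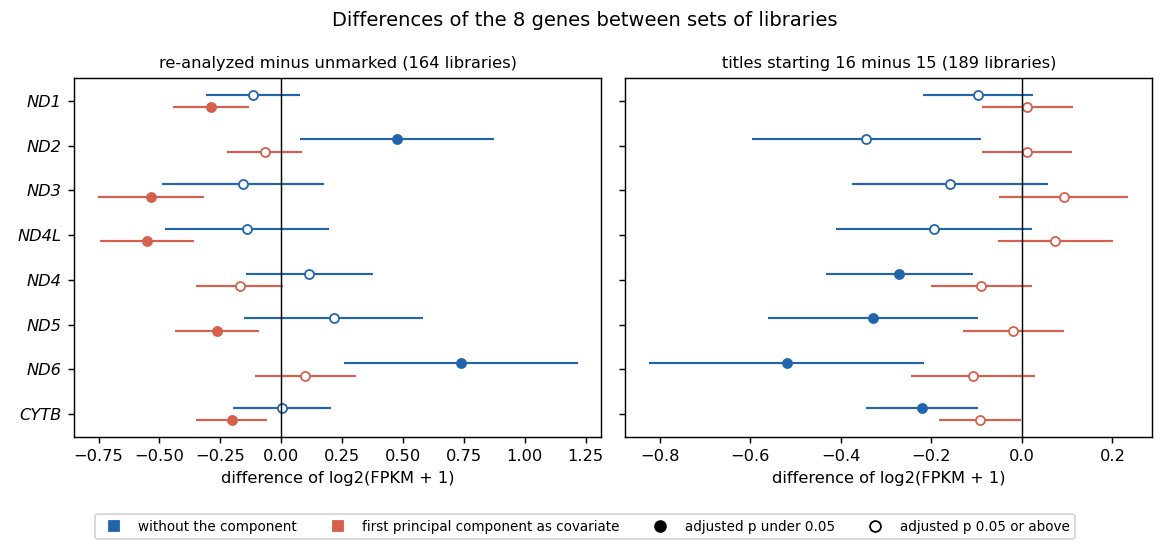
Differences of log2(FPKM + 1) for the 8 genes, re-analyzed minus unmarked (left) and titles starting 16 minus 15 (right), without and with the first principal component of the nuclear genes as a covariate; bars span 2 SE either way and filled points have an adjusted p under 0.05. ND6 stands at 0.74 and -0.52 without the component, and at 0.10 and -0.11 with it.

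Many nuclear partners of the members were higher in the re-analyzed libraries, beside 18.3% of all genes higher. Of 32 measured nuclear complex I subunits 19 were higher and 0 lower (median 0.20, against -0.01 over all genes). NDUFS4, an accessory subunit, differed by 0.80 (SE 0.13, limma adjusted p = 1.93e-07) and NDUFA5 by 0.79 (SE 0.18). Of 7 nuclear complex III subunits 5 were higher, among them the Rieske iron-sulfur protein UQCRFS1 (0.29, SE 0.06, limma adjusted p = 3.07e-05) and UQCR11 (0.30, SE 0.07). Of 21 assembly factors of complexes I and III 9 were higher, including LYRM7 (0.53, SE 0.13) of complex III and TMEM126B (0.40, SE 0.11) of complex I.

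Counts of genes that make and handle mitochondrial RNA stand beside the 41.1% of all genes called, 18.3% higher and 22.7% lower. They were not tested against these shares. Of 18 genes of mitochondrial transcription and replication 5 were higher, among them TFAM, which packages mitochondrial DNA and starts its transcription (0.51, SE 0.16, limma adjusted p = 0.00641), and MTERF2 (0.39, SE 0.11). Of 19 genes of mitochondrial RNA processing and stability 6 were higher and 2 lower. SLIRP, which with LRPPRC stabilises mitochondrial mRNAs, was higher by 0.65 (SE 0.18, limma adjusted p = 0.0025) and FASTKD1 by 0.64 (SE 0.16). PDE12, which removes poly(A) from mitochondrial mRNAs, was lower (-0.16, SE 0.06), as was PTCD1 (-0.11, SE 0.04).

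Markers of cell and fibre types were also called with the mark, beside 41.1% of all genes called, 18.3% higher and 22.7% lower. Neither fibre list had a larger share called than all genes. Fibroblast and matrix markers were lower in the re-analyzed libraries in 8 of 8 genes, with a summed level of 286 to 1537 FPKM against 290 to 3487 FPKM in unmarked libraries. Adipocyte markers were lower in 8 of 9 (42.1 to 308 FPKM against 31.5 to 3358 FPKM), macrophage markers in 5 of 6 (5.02 to 29.6 FPKM against 8.96 to 72.5 FPKM) and endothelial markers in 3 of 6 (38.5 to 82.1 FPKM against 40.1 to 135 FPKM). Red blood cell markers were lower in 3 of 3 measured. Of the adipocyte and macrophage markers 1 each was at 0 in some library of both sets, and of the fibroblast and endothelial markers 0 were. Of 9 slow fibre markers only TNNC1 was called, and it was lower (-0.49, SE 0.17). In that list 5 of 9 differences were positive, with a median of 0.07. Of 9 fast fibre markers TNNI2 was lower (-0.39, SE 0.11) and MYH2 (0.56, SE 0.11) and ACTN3 (0.20, SE 0.06) were higher, with a median of -0.003. The part of these cells in the members' differences was not tested.

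Titles begin with the digits 16 in 120 libraries and 15 in 69, and what they stand for is not stated. Of the 8 members 4 were lower in libraries with 16 (limma, mark as covariate), where 13.9% of the genes tested were called, 11.9% lower. ND6 had 76.1 FPKM in the lowest, 440 in the median and 1607 in the highest library with 16, against 149, 930 and 1414 FPKM with 15. Of the libraries with 16, 56 lay above the ND6 line and 64 below, and of those with 15, 49 above and 20 below. ND6 differed by -0.52 (SE 0.15, limma adjusted p = 0.0185). ND4 had 550, 1520 and 3333 FPKM with 16 and 800, 1773 and 4574 FPKM with 15, a difference of -0.27 (SE 0.08, limma adjusted p = 0.0203). CYTB had 734, 1735 and 3018 FPKM with 16 and 1104, 1984 and 3908 FPKM with 15, and differed by -0.22 (SE 0.06, limma adjusted p = 0.0142). The ranges overlap widely in each of the 3 genes.

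ND5 differed by -0.33 (SE 0.12, limma adjusted p = 0.0432), and without library 39 this call was lost (0.0618). ND2 missed the threshold (-0.34, SE 0.13, limma adjusted p = 0.0514), and ND4L (-0.19, SE 0.11), ND3 (-0.16, SE 0.11) and ND1 (-0.10, SE 0.06) were not called. The median was -0.25 for the members and -0.04 over all genes. In the unmarked libraries alone, 6 of 8 were lower (15.3% of all genes), with ND6 at -0.62. With the first principal component as covariate 0 of 8 were called, where 0.364% of genes were, and ND6 differed by -0.11 (SE 0.07). Because that component had r = 0.91 with ND6 over all 189 libraries, the fit cannot decide whether ND6 differs with the digits. With IMF as a covariate, in 164 animals, 1 of 8 was lower, CYTB (4.65% of all genes). Libraries with 16 averaged -0.177 ± 1.06 (SD, n = 120) on the component, and libraries with 15 averaged 0.308 ± 0.806 (SD, n = 69).

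Nuclear partners were called between title digits 16 and 15 in small numbers, beside the 13.9% of all genes called. Of 32 complex I subunits 2 were lower with 16, NDUFA5 (-0.34, SE 0.12) and NDUFC1 (-0.34, SE 0.10), and their median difference was 0.0041. In complex III, UQCR10 was higher (0.11, SE 0.04) and the other 6 were not called. Of 21 assembly factors ECSIT was higher (0.12, SE 0.04) and TMEM126B (-0.25, SE 0.07) and NDUFAF2 (-0.19, SE 0.06) were lower. Of 18 genes of mitochondrial transcription and replication 2 were lower, TFAM (-0.29, SE 0.10, limma adjusted p = 0.0429) and the nuclease MGME1 (-0.22, SE 0.05). Of 19 genes of mitochondrial RNA processing and stability 2 were lower, the RNA-granule protein GRSF1 (-0.20, SE 0.06) and PTCD2 (-0.10, SE 0.04). Of the mitochondrial mRNAs outside the 8, ATP6 (-0.51, SE 0.19) and COX2 (-0.37, SE 0.11) were among 3 of 5 lower. Macrophage markers were higher in 4 of 6 (summed level 9.54 to 72.5 FPKM with 16 against 5.02 to 67.3 FPKM with 15), led by C1QA (0.40, SE 0.10), and their part in the result was not tested.

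The 8 genes did not differ detectably between title codes. In the 146 animals of the 48 shared codes 0 of 8 were called by limma's moderated F test, against 1.82% of genes, and 0 of 8 had an unadjusted p under 0.05, as against 18.8% of genes. The intraclass correlation, which compares the variance between codes with the total, ran from -0.11 for ND5 to 0.027 for ND4L, with a median of -0.05 over the members and 0.05 over all genes. Nuclear partners were called in this comparison: 3 of 32 complex I subunits, among them NDUFS7 (intraclass correlation 0.35, limma adjusted p = 0.00969), and CYC1 of complex III (0.34, limma adjusted p = 0.0182).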

How the data were processed

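The authors deposited a single table with 1 value per transcript and library. Per the submitters' processing notes, HISAT2 2.0.5 and StringTie 1.3.3 were used with Sscrofa11.1; the sources used here name neither the annotation release nor a filter. The deposited values were taken as FPKM from the column layout and because multiplying them by transcript length accounts for 86.4% to 90.5% of the fragments of each library. The file holds no counts and no whole-read steps, so depth is unknown. Values of the 18114 transcripts were added up within each gene. The 10717 genes whose mean reached 0.5 FPKM entered limma 3.58.1 (R 4.3.3; lmFit, eBayes with trend, 2-sided) on log2(FPKM + 1), which understates changes of low genes, with Benjamini-Hochberg adjustment over all of them and a threshold of 0.05. Covariates were the mark (IMF slope, title digits, title codes) or IMF (mark). The method was tested on simulated data with independent noise in each gene and library. That test does not cover the pattern that genes share across the real libraries. Members and gene lists were chosen with earlier results of these data known. Named genes were the 8 members, the 6 nuclear genes most and 3 least like them, and up to 2 called genes per list, direction and comparison. Alternatives were another pseudocount (0.1), other filters, 3 normalizations, further covariates and left-out libraries. No sequence is shown because none was in the reference used here.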

Additional observations from a re-analysis of the deposited data

How the results depend on the processing

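The IMF slope, high against low IMF within the re-analyzed libraries and the title codes called 0 of the 8 genes under every alternative run, and in the first 2 comparisons the direction was the same for all but ND4L without high-IMF replicate 141 and the IMF slopes with title code as a block. Leaving out each of the 21 libraries in turn gave 0 calls throughout, with ND4L between -0.015 and 0.27. Of re-analyzed against unmarked, 1 member was higher (ND6) under quantile normalization and under scaling outside chromosome MT, and with the first principal component 0 were higher and 5 lower. That component also turned the sign of ND2 (-0.068), ND4 (-0.17), ND5 (-0.27) and CYTB (-0.20). CYTB, never called otherwise, was -0.086 under quantile normalization, -0.0062 under scaling outside chromosome MT and -0.030 with the first 4 title digits as a factor. For title digits 16 against 15, 0 members were lower with the component and 1 with IMF as a covariate, and the component gave ND1 0.012, ND2 0.010, ND3 0.092 and ND4L 0.074. The component itself had r from 0.57 (ND1) to 0.93 (ND2) with the members over all 189 libraries, and the cause of these changes was not tested. The other settings left between 3 and 6 members lower. With title code as a block (added after seeing the data) the IMF slopes were -0.0042 (ND1), -0.084 (ND2), -0.077 (ND3), -0.050 (ND4L), -0.057 (ND4), -0.080 (ND5), -0.13 (ND6) and -0.040 (CYTB), and re-analyzed minus unmarked had 0 members higher, with ND1 at 0.10, ND3 at 0.074 and ND4L at 0.20. By sample number, no paired analysis was possible because each number belongs to a single animal. Of the title codes, 0 codes hold re-analyzed animals of both high and low IMF and each lies within a title year, so those comparisons had no block. Unknown depth, an inferred unit and unstated strand limit all values.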
